A study of Brassica oleracea with 107 samples.

Results

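Transcripts of Brassica oleracea endosperm labelled 26 °C were compared at hours 1, 24 and 72. The early step was hour 24 against hour 1, and the late step hour 72 against hour 24. The genes are those at 1 TPM or more in at least one of these 3 columns, which is 12972 of the 16338 genes listed for endosperm and of the 19732 genes listed in the series. TPM is a transcript abundance corrected for gene length, in which all genes of a sample add up to 1000000. Brassica oleracea is the species of cabbage and broccoli. The study kept plants at 16 °C or 26 °C and sequenced RNA of embryo and endosperm at several times, in 107 libraries. The 26 °C hour series comprises 3 groups of 3 libraries each, 9 libraries in all, and is set beside the 16 °C hour series, which has the same 3 hours and numbers. Per the labels' protocols, all plants grew at 21 °C up to bolting and at 16 °C up to the bent-cotyledon stage, before they were kept at either temperature. The fraction named endosperm was dissected together with the seed coat, so it mixes both. All libraries of the hour series were built with the standard Illumina protocol. The labels do not give the event from which the hours are counted. Their library codes write hours 24 and 72 as 1 and 3 days, and the series title names seed development as well as germination.

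As background, the endosperm of a Brassica seed is a thin living layer between the seed coat and the embryo. It nourishes the embryo, takes part in keeping the seed dormant, and must weaken before the root can emerge. During maturation, seeds load storage proteins, oil bodies and protective proteins under the control of abscisic acid, and the dry seed keeps a store of transcripts. In an imbibed seed, that store is turned over and transcripts for metabolism, cell walls and growth replace it. Fewer cells of a type and less RNA per cell cannot be told apart in a dissected tissue.

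The deposited tables give 1 value per group, so no difference below has a replicate check or a p-value, and the depth behind a value is unknown. The tables hold genes that the authors chose as differing on these samples, so the share of genes that changed is not independent evidence of change. None of the identifiers matched the 53125 genes of the reference table used here, so genes are given by identifier, no function is assigned, and the labelled tissue could not be checked against marker genes. Genes under the 1 TPM line numbered 3366. The nearest member reached 1.0003 TPM in its highest column and the nearest gene left out 0.9988 TPM. The band from 1 to 1.1 TPM held 137 members, and that from 0.9 to 1 TPM held 161 genes left out.

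The size required of a change was 1 in log2(TPM + 1), or 2-fold, on a scale that understates the change of low genes. In the early step 3627 genes (28.0% of the members) were higher at hour 24 than at hour 1 and 2115 (16.3%) were lower. In the late step 3319 genes (25.6%) were higher at hour 72 than at hour 24 and 3088 (23.8%) were lower. From hour 1 to hour 72 as a whole, 5011 genes (38.6%) were higher and 3235 (24.9%) were lower. At least 4-fold differences were found for 1393 higher and 679 lower genes in the early step, and for 1246 higher and 1028 lower genes in the late step.

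The excess of higher genes in the early step depended on the scale. The median of log2(TPM + 1) in the column was higher by 0.35 at hour 24 than at hour 1, and differed by 0.00 between hours 72 and 24. The median of the steps of single genes was 0.23 in the early step and -0.03 in the late step. Measured from the median of each column, 2674 genes were higher and 2990 lower in the early step. Over the whole course 4073 were higher and 3968 lower on that scale. In the late step, 3317 were higher and 3091 lower after the same centring, but 2349 higher and 2713 lower among genes that reached 5 TPM.

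The shift of the median came with a change in how evenly the transcripts were spread, and a link between the 2 was not tested. A rescaling left out the 10 most abundant genes of each hour column and set the remaining listed genes to an equal sum. The early step then had 3888 higher and 1947 lower genes, a larger excess than before. Listed genes held 59.3% of all TPM at hour 1 and 47.0% at hour 24. This scale thus also depends on the genes not listed, and the part of the most abundant genes in the excess was not tested. The 10 most abundant genes held 12.2% of all TPM at hour 1, 2.84% at hour 24 and 5.06% at hour 72 at 26 °C. At 16 °C they held 11.3%, 3.16% and 5.51%, and the early shift of the median was 0.30. At hour 1 the most abundant gene was Bo4g025460, at 30087 TPM, followed by 1173 TPM at hour 24 and 88.5 TPM at hour 72. At hours 24 and 72 the most abundant gene was Bo3g036660, which ran the other way, at 1601, 3804 and 12230 TPM at hours 1, 24 and 72. The number of members at 1 TPM or more was 10022 at hour 1, 10780 at hour 24 and 11518 at hour 72, and the number listed at 0 was 411, 183 and 49. The fall in zeros follows in part from the filter, since a member that passed it by one column cannot be at 0 there. Hour 72 alone brought in 1527 members, against 398 for hour 1 alone and 305 for hour 24 alone. More of the listed genes reached 1 TPM at each later hour, while the 10 most abundant held less than at hour 1.

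Each gene was placed in a class by its 2 steps. Early genes passed 2-fold in the early step alone, late genes in the late step alone, continuous genes in both steps in the same direction, and turning genes in both steps in opposite directions. At least one step of 2-fold was found for 9449 genes, among them 3042 early, 3707 late, 1366 continuous and 1334 turning genes. Of the other 3523, 464 were gradually higher and 398 gradually lower, reaching 2-fold over the whole course without a single step of that size, and 2661 stayed under 2-fold. The classes share the hour 24 column: an error in that column moves both steps in opposite directions and adds to the turning genes. Many genes lie close to a line, with 264 early genes whose late step was between 0.9 and 1 in size, 272 late genes whose early step was, and 205 continuous genes whose smaller step was under 1.1.

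**Figure D1:**
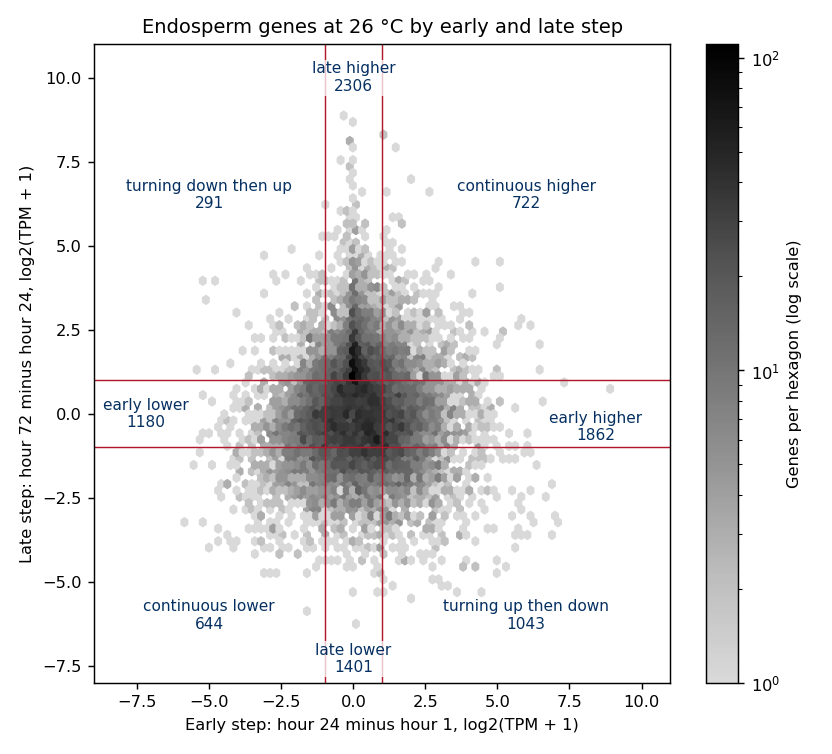
Each hexagon counts genes by their early step (x axis) and late step (y axis) at 26 °C, both as differences in log2(TPM + 1), with darker grey for more genes on a log scale; red lines mark 2-fold. The numbers are the genes of each class, and the column of hexagons above the upper line at an early step of 0 is made of late higher genes, 2306 in all.

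Early genes differed between hours 1 and 24 and, by the class rule, stayed within 2-fold of the new level at hour 72. The 1862 early higher genes had a median of 3.55 TPM at hour 1, 18.2 TPM at hour 24 and 17.8 TPM at hour 72. Of these, 1506 (80.9%) were still 2-fold above hour 1 at hour 72. The 1180 early lower genes had medians of 19.1, 4.46 and 4.49 TPM, and 981 of them (83.1%) were still 2-fold below hour 1 at hour 72. These shares follow in large part from the class rule, which limits the late step of early genes. Their early steps ran from 1.11 to 3.10 in log2 for the higher genes and from -2.68 to -1.11 for the lower ones, as the 10th and 90th percentiles over genes.

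The early higher gene with the largest step was Bo6g109040, at 1.73, 1412 and 2461 TPM at hours 1, 24 and 72 at 26 °C against 0.306, 182 and 1165 TPM at 16 °C. Bo3g101610 was at 2.75, 568 and 1026 TPM at 26 °C, against 0.213, 17.5 and 73.5 TPM at 16 °C. Both were under 1 TPM at hour 1 at 16 °C and above it at 26 °C. They had most of their gain by hour 24 at 26 °C, and gained by at least 2-fold in both steps at 16 °C. The early lower genes with the largest steps were Bo3g099440, at 215, 4.46 and 7.26 TPM at 26 °C, and Bo8g054130, at 75.3, 0.962 and 0.131 TPM. At 16 °C they were at 136, 2.72 and 2.80 TPM and at 9.79, 0.0219 and 0.0659 TPM. Both genes were early lower at 16 °C too. Bo8g054130, which was under 1 TPM from hour 24 on, also passed 2-fold in the late step, at -2.20, with a pseudocount of 0.1.

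Late genes, by the class rule, differed by less than 2-fold on this scale between hours 1 and 24. They differed by at least 2-fold between hours 24 and 72. The 2306 late higher genes had a median of 0.47 TPM at hour 1, 0.716 TPM at hour 24 and 7.0 TPM at hour 72. This class holds many genes that were close to silent before hour 72: 1232 of them (53.4%) reached 1 TPM at hour 72 alone, against 1527 (11.8%) of all members. A gene at 0 in both earlier columns that reaches 1 TPM at hour 72 is a member by that column alone and must then be late higher, so this count follows in part from the rule. The class outnumbered the early higher genes on this scale, but not among genes that reached 5 TPM, with 1383 against 1574, or with a pseudocount of 0.1, with 1861 against 2006. The 1401 late lower genes had medians of 16.3, 17.2 and 3.84 TPM. A 2-fold loss on this scale requires at least 1 TPM at hour 24, so their earlier expression follows in part from the rule. At hour 24 alone, 43 of them (3.07%) reached 1 TPM, near the 305 (2.35%) of all members.

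The largest late gain was that of Bo3g036940, at 0.341 TPM at hour 1, listed at 0 at hour 24 and at 467 TPM at hour 72 at 26 °C. Bo2g012470 was at 1.24, 1.15 and 935 TPM at 26 °C. At 16 °C the first of these was at 0.0114, 0.0141 and 20.9 TPM, and the second was listed at 0 at hour 1 and reached 0.597 and 118 TPM. Both were late higher at 16 °C as well, with lower end levels. Bo3g036940 was at no more than 0.0177 TPM in endosperm on days 0 and 22 at 16 °C and on days 3 and 22 at 26 °C. Bo2g016490 had the largest late loss, at 128, 143 and 0.901 TPM at 26 °C against 474, 526 and 68.5 TPM at 16 °C. Bo2g166380 was at 149, 145 and 2.79 TPM at 26 °C, against 343, 44.1 and 4.62 TPM at 16 °C. This second gene was lower in the late step alone at 26 °C, while at 16 °C its loss was spread over both steps.

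Continuous genes passed 2-fold in both steps in one direction, so that by rule they differed at least 4-fold over the whole course. The 722 continuous higher genes had a median of 1.51 TPM at hour 1, 10.4 TPM at hour 24 and 52.5 TPM at hour 72, and their median difference over the whole course was 3.74 in log2. The 644 continuous lower genes were the most abundant class at hour 1, with a median of 59.9 TPM, against 14.2 TPM at hour 24 and 2.68 TPM at hour 72, a median whole-course difference of -3.82.

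Bo9g177230 had the largest continuous gain, at 10.6, 407 and 9133 TPM at hours 1, 24 and 72 at 26 °C, against 1.01, 85 and 983 TPM at 16 °C. It was listed at 0 in endosperm on day 0 at 16 °C and on day 3 at both temperatures. Bo9g168970 was at 0.921, 33.5 and 749 TPM at 26 °C, against 1.79, 26.3 and 311 TPM at 16 °C. Unlike the first gene, it was abundant in the day series, at 391 TPM on day 3 at 26 °C and 157 TPM on day 0 at 16 °C. The continuous lower gene Bo3g034770 was at 7948, 436 and 25.5 TPM at 26 °C, against 4924, 636 and 1206 TPM at 16 °C. Bo5g145530 was at 1417, 45.8 and 1.84 TPM at 26 °C, against 1084, 88.4 and 491 TPM at 16 °C. Both genes were lower at hour 24 than at hour 1 at either temperature, but at 16 °C they were higher at hour 72 than at hour 24. Bo4g025460, the most abundant gene at hour 1, showed the same contrast, with late steps of -3.71 at 26 °C and 0.30 at 16 °C.

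Turning genes formed a peak or a trough at hour 24. The 1043 genes that turned up then down had medians of 6.49, 34.2 and 7.30 TPM, and 728 of them (69.8%) were within 2-fold of hour 1 again at hour 72. The 291 genes that turned down then up had medians of 13.7, 3.35 and 16.0 TPM, with 206 (70.8%) back within 2-fold. These shares follow in part from the class rule, which asks for opposite steps. Of all 12972 members, 8246 differed 2-fold over the whole course. The numbers of turning genes moved with the scale: after median centring there were 812 and 467. By the smaller of its steps, Bo2g041160 had the largest peak, at 26.0, 791 and 30.1 TPM at 26 °C, and no such peak at 16 °C, at 71.0, 81.3 and 7.85 TPM. Bo5g021040 peaked at both temperatures, at 1.74, 110 and 3.98 TPM at 26 °C, against 10.9, 116 and 18.2 TPM at 16 °C. By the same measure, troughs were deepest in Bo5g086790, at 134, 3.54 and 68.0 TPM at 26 °C against 63.6, 12.4 and 38.7 TPM at 16 °C, and in Bo9g173530, at 206, 4.22 and 76.6 TPM against 49.8, 1.72 and 4.98 TPM. Both troughs were present at 16 °C by the same rule.

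**Figure D2:**
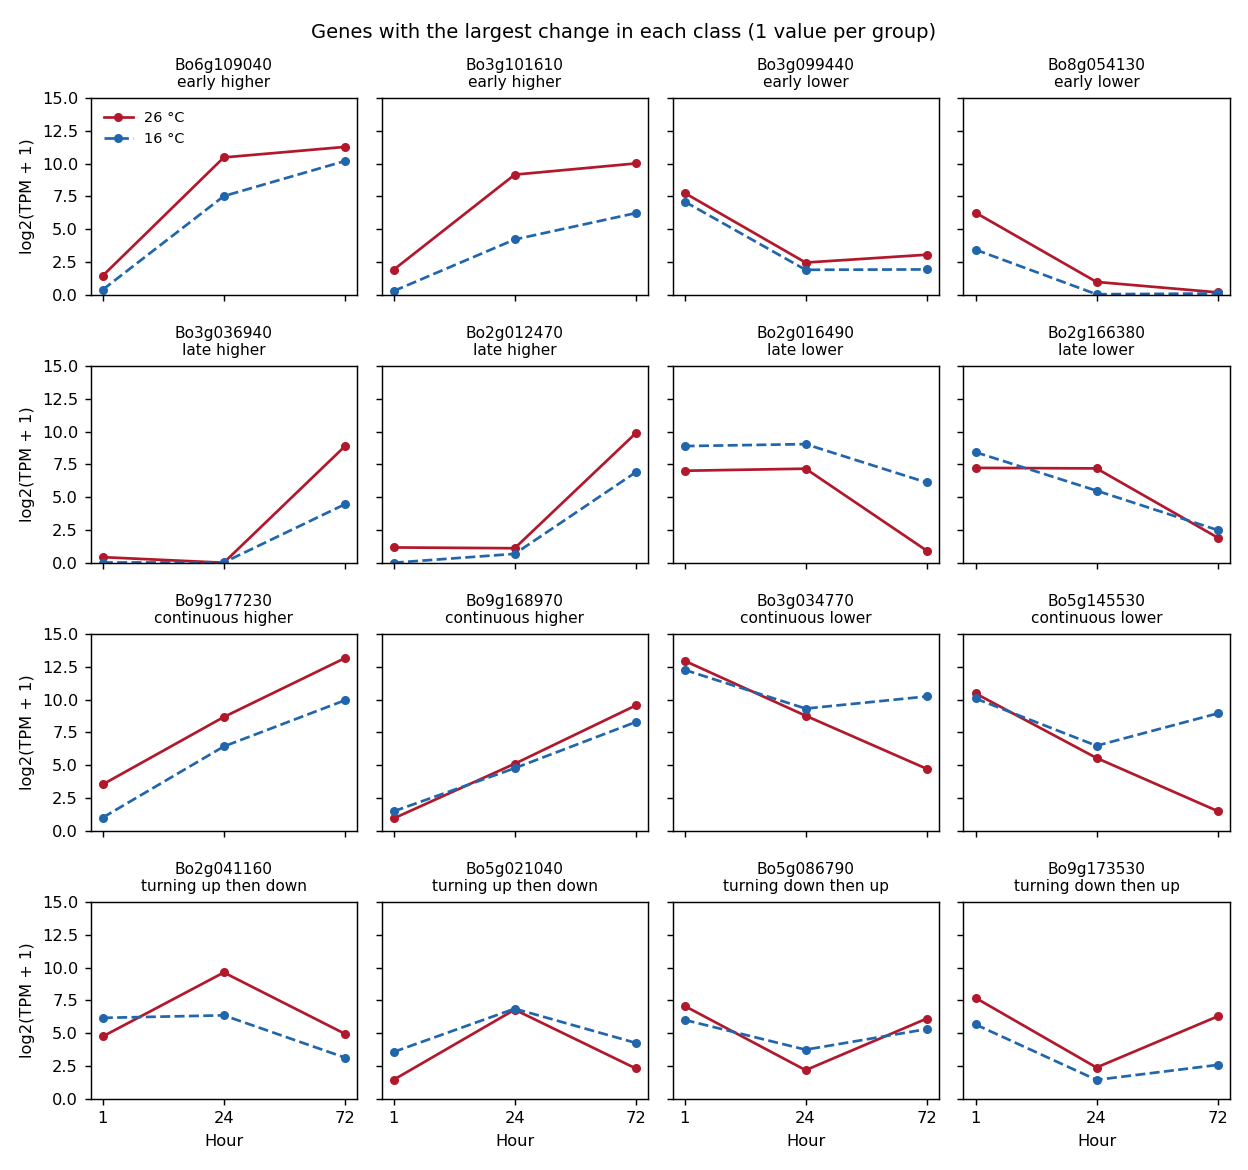
Each panel plots log2(TPM + 1) of 1 gene against hour for 26 °C (red, solid) and 16 °C (blue, dashed), for the 2 genes with the largest change in each class, with 1 value per group, no error and the hours evenly spaced. The 2 continuous lower genes, Bo3g034770 and Bo5g145530, end at 25.5 and 1.84 TPM at 26 °C, against 1206 and 491 TPM at 16 °C.

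Weighed by abundance, the classes exchanged places. At 26 °C the direction of these shifts follows from the class rule, which used the same columns, and the shares give their size. Continuous lower genes held 23.2% of all TPM at hour 1, 3.75% at hour 24 and 0.827% at hour 72 at 26 °C. Early lower genes held 12.3%, 2.67% and 2.28%. In their place, continuous higher genes held 0.813%, 3.36% and 13.4%, early higher genes 2.10%, 10.0% and 10.8%, and late higher genes 1.85%, 2.12% and 9.03%. Genes that turned up then down held 9.79% at hour 24, against 2.01% at hour 1 and 2.36% at hour 72. At 16 °C the same continuous lower genes held 21.8%, 6.71% and 7.83%, and the same continuous higher genes 0.709%, 2.52% and 5.93%. The classes were chosen on the 26 °C columns, which favours a gap between the temperatures at hour 72. The listed genes together held 59.3%, 47.0% and 50.2% of TPM at hours 1, 24 and 72 at 26 °C, and the remainder lies in genes that are not listed.

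**Figure D3:**
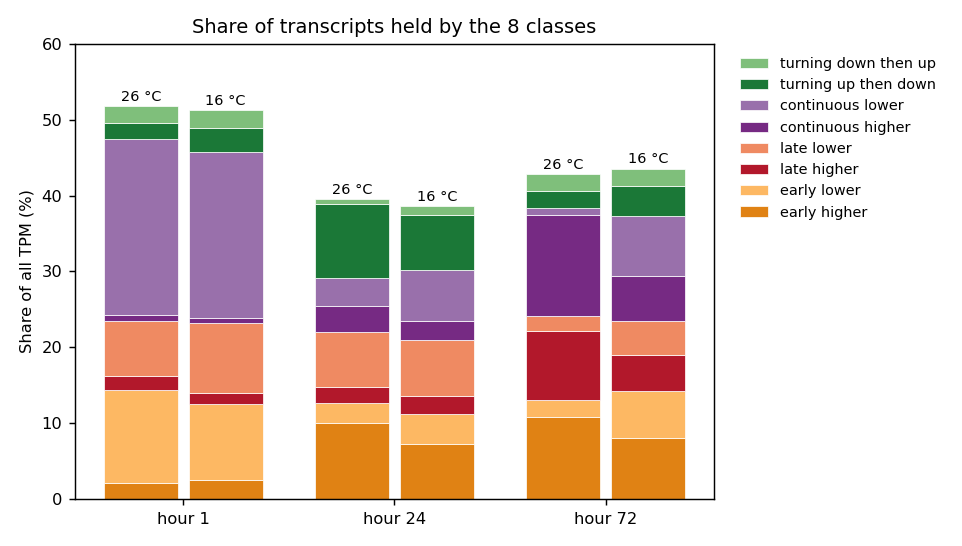
Stacked bars give the percentage of all TPM held by the genes of each class at hours 1, 24 and 72, at 26 °C (left bar of each pair) and 16 °C (right bar), with classes set at 26 °C. The continuous lower block must shrink at 26 °C by the class rule. It holds 0.827% at hour 72 at 26 °C and 7.83% at 16 °C.

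The same genes were then followed in the 16 °C hour series, which comes from separate libraries. At 16 °C, 2858 members (22%) were higher and 1937 (14.9%) lower in the early step, or 2048 and 2604 after median centring. In the late step 1733 (13.4%) were higher and 992 (7.65%) lower. Over the whole course the counts were 3810 higher (29.4%) and 2544 lower (19.6%), or 2819 and 3448 after median centring. The median size of the early step was 0.87 at 26 °C and 0.70 at 16 °C, and that of the late step 0.99 at 26 °C and 0.50 at 16 °C. By this measure the temperatures lay further apart in the late step than in the early one, which was not tested. Gene by gene the contrast was not clear. The early step was higher at 26 °C than at 16 °C by at least 1 in log2 for 2363 genes, and lower by as much for 1570. In the late step these numbers were 1904 and 2111. With a pseudocount of 0.1 the late step at 16 °C had 2949 higher and 1561 lower genes, against 3830 and 3763 at 26 °C. The members were chosen on 26 °C columns, which favours changes there. In a set chosen after the data were seen, the 11233 genes that reached 1 TPM in the hour series of both temperatures, 3398 were higher and 2002 lower in the early step at 26 °C, and 2858 and 1937 at 16 °C. In the late step, 2437 of these were higher and 2932 lower at 26 °C, against 1733 and 992 at 16 °C, so that lower genes outnumbered higher ones at 26 °C in this set.

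Steps of the same gene resembled each other at the 2 temperatures. Across the 12972 genes the early steps correlated with Pearson's r of 0.72 and Spearman's rho of 0.68, and the late steps with 0.72 and 0.72. Genes are not independent replicates, and this is a description. Opposite 2-fold steps were rare: in the early step 81 genes had a gain at 26 °C and a loss at 16 °C and 10 had the reverse, and in the late step there were 4 and 50. Those 50 genes, among them Bo5g145530, were lower at hour 72 than at hour 24 at 26 °C and higher at 16 °C.

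The share of each class that was in the same class at 16 °C was set beside the share of all members in that class at 16 °C. Of the 1862 early higher genes at 26 °C, 968 (52.0%) were early higher at 16 °C, against 16.7% of all members, and they made up 44.8% of the 2161 members in that class at 16 °C. Of the 1180 early lower genes, 553 (46.9%) were in the same class, against 11.8% of all members, and made up 36% of the 16 °C class. Late higher genes shared 647, which is 28.1% of the 26 °C class and 56.9% of the 16 °C class, against 8.77% of all members. Late lower genes shared 244 (17.4% and 50.0%), against 3.76% of all members. No 2-fold step at 16 °C was found for 1323 late higher genes (57.4%) and 696 late lower genes (49.7%), which is near the 50.5% of all members. Late classes at 16 °C were small, at 1137 higher and 488 lower members, which limits the share that 26 °C genes can have in them. Of the late higher genes 794 (34.4%) were higher in the late step at 16 °C, against 13.4% of all members, and of the late lower genes 389 (27.8%) were lower, against 7.65%.

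Continuous higher genes passed 2-fold about as often in either step at 16 °C, and continuous lower genes mostly in the early one. Of the 722 continuous higher genes, 432 (59.8%) were higher in the early step and 429 (59.4%) in the late step at 16 °C, with median steps of 1.28 and 1.22, against 22% and 13.4% of all members. Of the 644 continuous lower genes, 453 (70.3%) were lower in the early step at 16 °C, but 123 (19.1%) in the late step, with median steps of -1.57 and -0.45, and 29 were higher. Of all members, 14.9% were lower in the early step and 7.65% in the late step. At 26 °C the median steps of this class were -1.85 and -1.77. At 16 °C, 95 of these genes (14.8%) were continuous lower, against 1.92% of all members, and 235 (32.5%) of the continuous higher genes kept their class, against 3.41%. Genes that turned up then down at 26 °C did so at 16 °C in 164 cases (15.7%) and those that turned down then up in 42 cases (14.4%), while 1.97% and 1.19% of all members were in these classes at 16 °C.

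**Figure D4:**
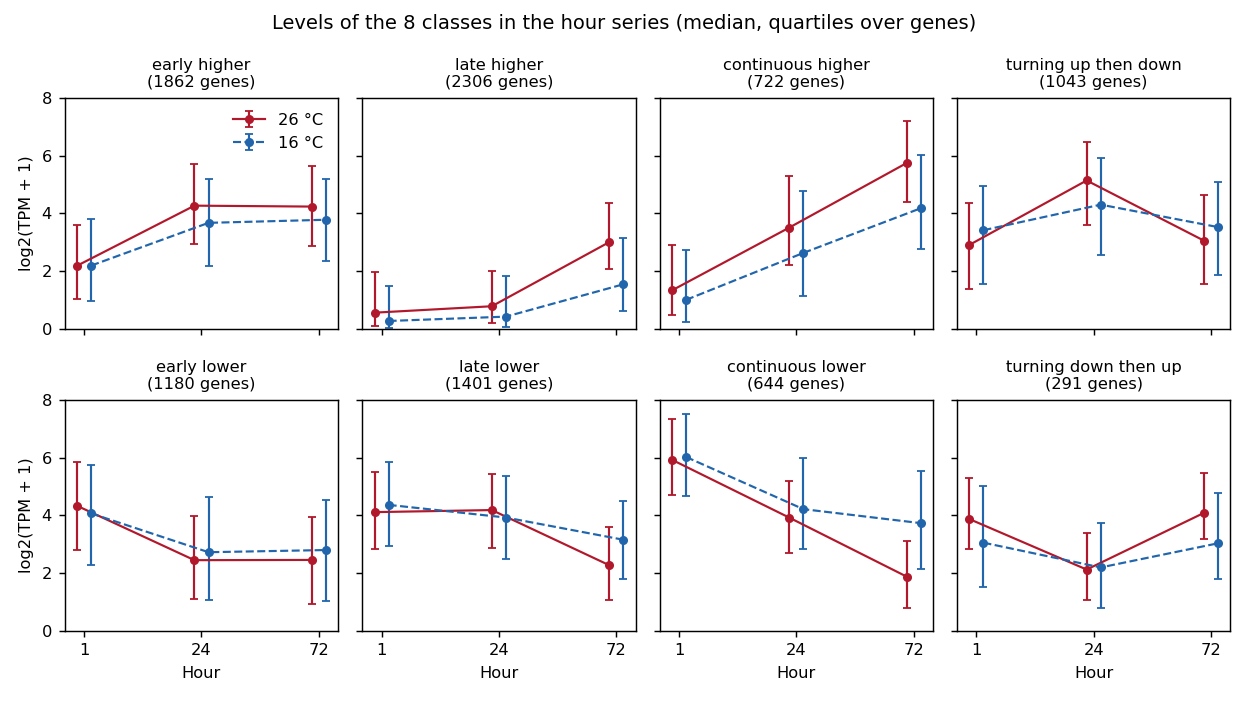
Points give the median log2(TPM + 1) over the genes of each class and bars the quartiles over genes, not an error of measurement, at hours 1, 24 and 72 (evenly spaced) at 26 °C (red, solid) and 16 °C (blue, dashed). Continuous lower genes end at a median of 2.68 TPM at 26 °C, against 12.3 TPM at 16 °C, and late higher genes at 7.0 TPM at 26 °C, against 1.91 TPM at 16 °C.

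The classes were also read in the day series, whose columns the classes did not use. Of the members, 8348 are listed for embryo too. In embryo at 26 °C, 1663 of these (19.9%) were 2-fold higher on day 22 than on day 1 and 3725 (44.6%) lower. Of the 517 continuous lower genes listed there, 325 (62.9%) were higher on day 22 and 35 (6.77%) lower. Of the 503 continuous higher genes, 18 (3.58%) were higher and 396 (78.7%) lower, and of the 1595 late higher genes 40 (2.51%) and 1256 (78.7%). After median centring the split of all members turned, to 36.8% higher and 27.7% lower, while that of the continuous lower genes was 83% and 2.30%, of the continuous higher genes 10.4% and 57.3%, and of the late higher genes 7.44% and 58.5%. On both scales the share of higher genes was above that of all members in the continuous lower class and below it in the continuous higher and late higher classes. None of these differences between classes was tested. Late lower genes numbered 382 (41.9%) higher and 110 (12.1%) lower of 912. The early classes stood nearer to all members, with 112 (10.1%) higher and 613 (55.3%) lower of 1109 early higher genes, and 262 (32.8%) higher and 205 (25.7%) lower of 798 early lower genes. After centring they had 23.5% and 31.6% of early higher genes, and 52.3% and 13.4% of early lower genes.

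The classes were then read in embryo at 16 °C and in endosperm. In embryo at 16 °C, 12.8% of the members were higher on day 22 than on day 0 and 43.5% lower, or 30.2% and 21.8% after centring. The continuous lower genes had 253 (48.9%) higher and 24 (4.64%) lower there, and the late higher genes 42 (2.63%) and 1204 (75.5%). In endosperm at 26 °C, 15.5% of all 12972 members were higher on day 22 than on day 7 and 28.0% lower, or 21.6% and 19.3% after centring, both columns being of the Ovation library kit. Of the continuous lower genes 366 (56.8%) were higher and 37 (5.75%) lower, and of the continuous higher genes 50 (6.93%) were higher and 342 (47.4%) lower. In endosperm at 16 °C, 6.34% of the members were higher on day 22 than on day 7 and 10.4% lower (8.86% and 5.60% after centring), against 182 (28.3%) and 26 (4.04%) of the continuous lower genes. The continuous higher genes lay near all members there, with 40 (5.54%) higher and 106 (14.7%) lower. The late step at 26 °C correlated across genes with the embryo difference of days 22 and 1 at 26 °C with Pearson's r of -0.54, and the early step with -0.23. These are descriptions over genes that the authors chose.

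**Figure D5:**
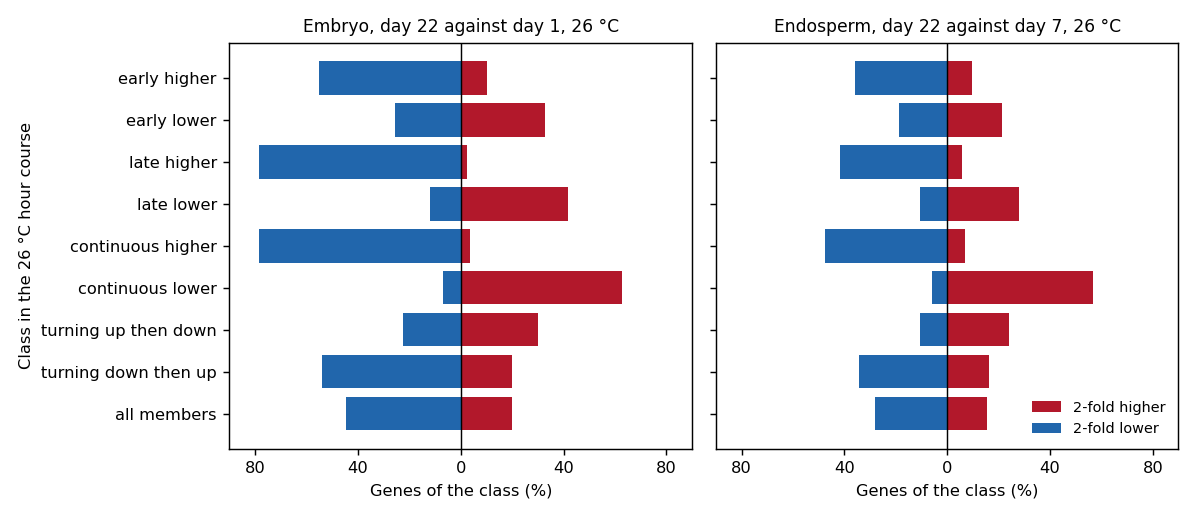
Bars give the percentage of each class, set in the 26 °C hour course, that was 2-fold higher (red, right) or lower (blue, left) in embryo on day 22 against day 1 and in endosperm on day 22 against day 7, both at 26 °C, with all members in the last row. Continuous lower genes lie mostly to the right, at 62.9% in embryo and 56.8% in endosperm, and continuous higher genes to the left, at 78.7% and 47.4%.

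Bo4g025460, the most abundant gene at hour 1 at 26 °C, was at 21713 TPM in embryo on day 22 and 1.60 TPM on day 1 at 26 °C, and at 6605 TPM in endosperm on day 22 at 26 °C. Bo3g034770 was at 15813 TPM in embryo on day 22 and 15 TPM on day 1 at 26 °C, and Bo5g145530 at 1644 and 0.0431 TPM. In endosperm on day 22 both genes were higher at 26 °C, at 8048 and 508 TPM, against 127 and 1.68 TPM at 16 °C. All 3 genes were thus high on day 22 in both tissues at 26 °C. The order of these stages in time across the day and hour series is not known, since the starting point of the hours is not given.

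As whole profiles, the 26 °C hour columns differed in which day columns they were most like. Across the 8348 genes listed in both tables, hour 1 correlated with embryo on day 22 at 26 °C with Pearson's r of 0.80, hour 24 with 0.67 and hour 72 with 0.44. With endosperm on day 22 at 26 °C the values over the same genes were 0.71, 0.66 and 0.46. With embryo on day 22 at 16 °C they were 0.59, 0.54 and 0.45, but with endosperm on day 22 at 16 °C the order was the opposite, at 0.40, 0.44 and 0.47. Across all 12972 members, that last comparison gave 0.50, 0.53 and 0.53, with no rise from hour 24 to hour 72. Over the 8348 genes, embryo on day 0 at 16 °C also gave its highest value at hour 72, with 0.18, 0.22 and 0.50. The values with endosperm on day 0 at 16 °C were 0.23, 0.31 and 0.49. The library kit of endosperm on day 22 differs from that of the hour series, whereas embryo and endosperm on day 0 share the standard kit with it. The higher likeness of hour 1 to embryo than to endosperm of day 22 goes together with a difference of kit, whose part in it was not tested.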

How the data were processed

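RNA sequencing of Brassica oleracea embryo and endosperm was analysed from 2 tables deposited by the authors, 1 per tissue, in TPM with 1 column per group. STAR 2.5, cutadapt 1.9.1 and featureCounts are named, per the submitters' processing notes. The sources used here do not give the build, the annotation, the strand setting or how the libraries of a group were combined.

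Columns were matched to groups by name. Values were taken as log2(TPM + 1) and differences between columns were counted from 1 in log2. Genes named are the 2 with the largest change in each of 8 classes among those at 5 TPM or more in their highest 26 °C hour column (for continuous and turning genes, by the smaller step), and the most abundant gene of each of the 3 columns. With 1 value per group neither a test nor a detection limit could be given. Endosperm of days 7, 15, 18 and 22 went through the Ovation kit and the remaining samples through the standard Illumina protocol, per the labels. The class rule was run on simulated data with steps set well away from the class lines. That run checks the code and cannot speak to genes near a line or at low TPM. Alternatives were a pseudocount of 0.1, no filter, a 5 TPM filter, median centring and rescaling without the 10 most abundant genes of each column. The rescaling set the sum of the remaining listed genes equal within each set of compared columns. The marker genes listed for tissue checks could not be looked up. The members, classes and rules were chosen with earlier results of these data known. Python 3.11.15, numpy 2.4.6, pandas 2.3.3 and matplotlib 3.10.9 were used.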

Additional observations from a re-analysis of the deposited data

Results flagged for a closer look

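Bo5g145530 moved in opposite directions at the 2 temperatures in the late step, with a log2 difference of -4.04 at 26 °C and 2.46 at 16 °C. Each direction rests on 1 column per group and hour, and the difference was not tested.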

How the results depend on the processing

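Of 71 counts and percentages recomputed under 5 alternatives, 39 stayed within 1.5 times of the reported value in each of them; rescaling without the 10 most abundant genes moved none past that. With a pseudocount of 0.1, the late step at 16 °C had 2949 higher and 1561 lower genes, and the classes had 1347 continuous higher, 970 continuous lower, 622 turning down then up, 247 gradual higher and 257 gradual lower genes. Median centring gave 467 genes turning down then up. At 5 TPM or more there were 1383 late higher, 228 gradual higher, 250 gradual lower and 1551 genes under 2-fold, and 6027 of the last without a filter. Against day 1 in embryo at 26 °C, median centring gave, higher and lower on day 22, 23.5% and 31.6% of early higher, 52.3% and 13.4% of early lower, 67.0% and 6.12% of late lower, and 54.0% and 10.7% of up then down genes; it gave 7.44% of late higher and 10.4% of continuous higher genes as higher, and 2.30% of continuous lower genes as lower. A pseudocount of 0.1 made late higher 4.47% higher, and late lower 18.3% and continuous lower 12.7% lower. Against day 7 in endosperm, centring gave 15.7% and 23.0% of early higher genes as higher and lower, 9.89% of late higher as higher, and 6.21% of late lower, 3.62% of continuous lower and 6.65% of up then down genes as lower. There the pseudocount of 0.1 made late higher 11.3% and continuous higher 12.0% higher, and continuous lower 13.3% and up then down 19.6% lower. Of all members, centring gave 36.8% higher and 27.7% lower in embryo at 26 °C, 30.2% and 21.8% in embryo at 16 °C (day 22 against day 0) and 5.60% lower in endosperm at 16 °C, where a pseudocount of 0.1 gave 24.3% lower; these all-member splits were added after the data were seen, as was the set of genes at 1 TPM at both temperatures, which moved no count past 1.5 times. The cause was not tested. No step of 2-fold or more in a named gene reversed. Among the smaller ones, the early step of Bo2g016490 was 0.16 and, median centred, -0.19, and that of Bo2g166380 -0.04 and, rescaled, 0.07. With a pseudocount of 0.1 the late step of Bo8g054130 was -2.20 and the early step of Bo3g036940 -2.14, both past 2-fold.

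No paired analysis was possible because the columns carry no replicate values; leaving out single replicates was not run for the same reason. Sequencing depth is unknown, so low values carry an error that cannot be given.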

Other observations

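At the extremes, listed gains outnumbered losses over the hours at 26 °C, among few genes. A level under 0.1 TPM at hour 1 with 10 TPM or more at hour 72 was found for 162 of the 12972 members. The reverse was found for 24. The median member was at 5.50 TPM at hour 1 and 7.28 TPM at hour 72, and 411 and 49 members were listed at 0. The part of this in the counts was not tested, and depth is unknown. Of the 162, 60 had reached 1 TPM by hour 24. At 16 °C 20 reached 10 TPM at hour 72 while 39 were under 1 TPM, counts for which no share of all members was computed. In endosperm on days 0, 1 and 3, 108 of them (66.7%) were at 1 TPM or more in at least one column, against 83% of all members, and on day 22 at 26 °C 68 (42.0%), against 80.3% of all members. Of the 24 genes that were lost, 20 (83.3%) were at 1 TPM or more in endosperm on day 22 at 26 °C, which is near the share of all members. On days 0, 1 and 3, 7 of the 24 (29.2%) reached 1 TPM in at least one endosperm column, well under the 83% of all members. The bounds were chosen after the values were seen.

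The identifiers run in numbered series, Bo1g to Bo9g, whose numbers differ by at least 10. Whether neighbours in number were in the same class differed by class. Of 3695 pairs with the smallest gap, 301 started with a gene that turned up then down, and in 49 (16.3%) the next gene did too, against 8.02% of all such members. For genes that turned down then up it was 10 of 96 (10.4%) against 2.23%, for continuous lower genes 18 of 175 (10.3%) against 4.91%, and for late higher genes 154 of 670 (23.0%) against 17.9%. The share was close to that of all members for gradual higher genes, at 3.62% against 3.63%, and for gradual lower genes, at 3.64% against 3.03%. Late lower genes had 13.3% against 10.8%, early higher genes 18.4% against 14.3%, early lower genes 15.3% against 9.04%, continuous higher genes 9.27% against 5.57% and genes under 2-fold 23.6% against 20.6%. None of these differences was tested. Near-identical copies side by side may share reads, and their part in this was not tested. No series stood far from the others in the share of late higher genes, which ran from 15.2% in Bo7g to 20.3% in Bo4g.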
